A study of Homo sapiens with 12 samples.

Results

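MIR21 is the precursor gene of miR-21, an oncogenic microRNA (miRNA). It was taken as the row whose GENCODE gene name is MIR21, and this rule found 1 of the 1881 miRNA genes listed for each of 12 small RNA libraries. The libraries came from A375, a human melanoma cell line that is sensitive to the BRAF inhibitor dabrafenib, and from A375-BIR, a resistant line that had been selected from A375 by continuous growth in the drug. Each line was kept for 48 h in dabrafenib at 200 nM or in the vehicle, DMSO at 0.1%, and each of the 4 groups holds 3 libraries. A375-BIR is a single resistant derivative of a single parental line, so the line comparisons below describe this pair of cultures. The labels call the libraries biological replicates without saying how the cultures were kept apart, and p-values measure only the spread between these libraries, which may be technical.

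miR-21 is among the best known oncogenic miRNAs and represses the mRNA of PDCD4, an inhibitor of translation. Its primary transcript is classically driven by the transcription factor AP-1, whose FOS and JUN subunits are induced and stabilised by ERK signalling, and STAT3 is another known activator. Mutant BRAF keeps ERK signalling active in melanoma, and dabrafenib blocks the pathway at BRAF. The question put to the counts was therefore how the level of MIR21 compared between treatments and between lines.

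The mature sequence is shown with bases 2 to 8, the seed that pairs with target mRNAs, in capitals. miR-590-5p is the other mature miRNA of the RefSeq table (hg38) with the same seed among the genes counted, and both are printed to show the extent of the family.
miR-21-5p: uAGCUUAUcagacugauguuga
miR-590-5p: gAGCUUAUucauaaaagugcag
miR-21-5p lies on the plus strand at chr17:59841273-59841294, and miR-590-5p on the plus strand at chr7:74191213-74191234. The other strand of the hairpin, miR-21-3p, is named only. MIR590 held 7 counts over all 12 libraries, at most 2 in any of them, and was too low to be tested.

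The MIR21 precursor (ENSG00000284190) covers 72 bases at chr17:59841266-59841337 on the plus strand of hg38. It lies within VMP1 (17, 59707192 to 59842255), a gene for a vacuole membrane protein on the same strand. Of 20 annotated VMP1 transcripts, 10 span the precursor, which is exonic in all 10 and untranslated in 8. No gene overlaps it on the opposite strand. A count per gene cannot tell a read of mature miR-21 from a VMP1 fragment over the same bases, and the 5p and 3p arms are counted together. No other listed precursor shares 18 bases in a row with MIR21, and its expected count was whole in 10 of 12 libraries, so little of it was divided with other genes.

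Because AP-1 is the classical activator of MIR21, the AP-1 letters TGACTCA were looked for on both strands in the 5000 bases upstream of the precursor. There was 1 match, on the minus strand and 4034 bases upstream, shown here on the plus strand with the match in capitals.
AP-1 letters at chr17:59837222-59837248: gaagtgaattTGAGTCAgtgtacttaa
This stretch lies inside VMP1, within 9 of its transcripts, and is exonic in 1 of them. The same letters occur in 54.9% of the 1877 windows of this length upstream of annotated miRNA genes, so a match is common. It is a description of the sequence and not a binding site.

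Libraries differed in depth. Expected counts, the reads that the authors' program RSEM assigned to each gene, had totals of 77264, 121802 and 86898 in replicates 1, 2 and 3 of A375 in DMSO. The totals were 47507, 51532 and 36955 for A375 under dabrafenib, 106427, 120625 and 122792 for A375-BIR in DMSO and 35070, 59899 and 47607 for A375-BIR under dabrafenib. All dabrafenib libraries were therefore shallower than all DMSO libraries.

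MIR21 was abundant in every library. Its count was 1587, 1816 and 1380 in A375 in DMSO, and 648, 446 and 435 in A375 in dabrafenib. In A375-BIR it was 1838, 2072 and 1779 in DMSO, and 471, 838 and 578 in dabrafenib. At these counts MIR21 ranked between 14 and 18 among all genes of a library, and between 370 and 518 genes had any count. By mean share of the library (1.45%) it was the 13th gene, just below MIRLET7G (1.81%) and just above MIR30A (1.28%), with no term for length. This mean runs over both lines: MIR30A took 0.283% to 0.444% of the A375 libraries, below MIR21, and 1.56% to 2.67% of the A375-BIR libraries, above it. The 5 genes with the largest mean share were MIRLET7B (17.8%), MIRLET7I (11.9%), ENSG00000275110 (8.80%) and the let-7a copies MIRLET7A1 (7.23%) and MIRLET7A2 (7.23%), which share their reads. ENSG00000275110 owes this place to the dabrafenib libraries (10.6% to 20.1%, against 1.85% to 4.52% in DMSO).

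As a share of the library total, MIR21 took 2.05% (exact 95% binomial interval 1.96 to 2.16), 1.49% (1.42 to 1.56) and 1.59% (1.51 to 1.67) of the A375 libraries in DMSO. In dabrafenib the A375 libraries held 1.36% (1.26 to 1.47), 0.865% (0.787 to 0.949) and 1.18% (1.07 to 1.29). Every A375 library in dabrafenib thus lay below every A375 library in DMSO. The A375-BIR libraries held 1.73% (1.65 to 1.81), 1.72% (1.65 to 1.79) and 1.45% (1.38 to 1.52) in DMSO. In dabrafenib they held 1.34% (1.23 to 1.47), 1.40% (1.31 to 1.50) and 1.21% (1.12 to 1.32). In A375-BIR too the dabrafenib libraries lay below the DMSO libraries, although by a narrow margin. These intervals cover counting error only, since reads without molecular identifiers are not independent molecules.

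Group means of the MIR21 share were 1.71% ± 0.301 (SD, n = 3) in A375 in DMSO, 1.63% ± 0.158 in A375-BIR in DMSO, 1.32% ± 0.0948 in A375-BIR in dabrafenib and 1.14% ± 0.252 in A375 in dabrafenib. In that order, the DMSO groups of the lines overlapped, and so did the dabrafenib groups. Non-overlap of this kind was frequent among the 175 genes tested: in A375, 55.4% of them had shares that did not overlap between treatments and 38.9% were lower in every dabrafenib library. In A375-BIR these figures were 36% and 19.4%, and 14.3% of the genes (25, MIR21 among them) were lower in every dabrafenib library of both lines.

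A rise in other rows accompanied the lower share. Precursors with a run of at least 18 bases found in the 45S pre-rRNA (17, called rRNA-like here) took 3.49%, 3.22% and 5.59% of the A375 libraries in DMSO and 21.2%, 26.3% and 20.9% in dabrafenib. They took 2.65%, 2.67% and 4.57% of the A375-BIR libraries in DMSO and 16.9%, 14.4% and 16.7% in dabrafenib. The most abundant of them was ENSG00000275110. With these rows left out of the denominator, the MIR21 share was 1.78% ± 0.306 (SD, n = 3) in A375 in DMSO and 1.46% ± 0.280 in dabrafenib, and 1.69% ± 0.145 and 1.57% ± 0.0972 in A375-BIR. The treatments then overlapped in both lines. The part of the rRNA-like rows in the lower share of MIR21 was not otherwise tested, and fewer cells with miR-21 and less miR-21 per cell cannot be told apart in bulk RNA.

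**Figure D1:**
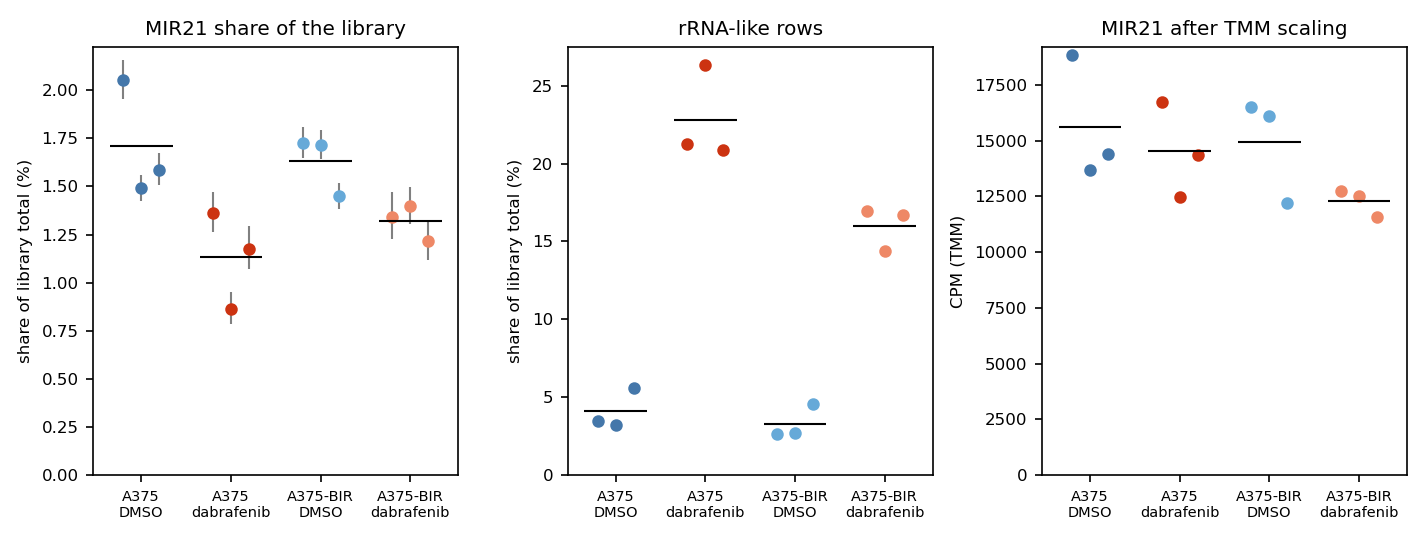
MIR21 in each of the 12 libraries. The left panel shows the share of the library total in percent with exact 95% binomial intervals, the middle panel the share of the 17 rRNA-like rows, and the right panel MIR21 in CPM (counts scaled to a common library size) by TMM; points are libraries and horizontal lines are means of 3. In both lines the dabrafenib libraries lie below the DMSO libraries in the left panel and above them in the middle panel. In the right panel the treatments overlap, in A375-BIR through replicate 3 in DMSO alone.

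For the main comparison, counts were scaled by TMM (trimmed mean of M values) to CPM, counts scaled to a common library size. TMM gave the A375 libraries in dabrafenib factors of 0.814, 0.694 and 0.821, below the range of 1.05 to 1.19 in the other 9 libraries. After this scaling MIR21 stood at 18832, 13669 and 14383 CPM in A375 in DMSO and at 16750, 12474 and 14330 CPM in A375 in dabrafenib. The A375 treatments overlapped, and replicate 1 was the highest library of each. In A375-BIR it stood at 16506, 16109 and 12192 CPM in DMSO and at 12757, 12495 and 11590 CPM in dabrafenib. These groups overlapped as well, through replicate 3 in DMSO, which lay close to the dabrafenib libraries. Group means ran in the order A375 in DMSO (15628 ± 2797 CPM, SD, n = 3), A375-BIR in DMSO (14936 ± 2384), A375 in dabrafenib (14518 ± 2144) and A375-BIR in dabrafenib (12281 ± 613). Each neighbour in this order overlapped with the next, and the highest mean was 1.27-fold the lowest. Over 7 scalings this ratio ran from 1.22 to 2.05. A375 in DMSO was highest under all 7, while the order of the others changed under 3. The coefficient of variation between replicates was between 4.99% and 17.9%, above the 2.30% to 4.50% that counting error alone gives at these counts, although in A375-BIR in dabrafenib counting error (4.10%) came close to the whole spread (4.99%).

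Dabrafenib against DMSO addresses the response to the inhibitor within each line. In A375, MIR21 was lower by a log2 fold change of -0.11 (SE 0.17, 95% interval -0.47 to 0.26; 0.929-fold), with an adjusted p of 0.659 by edgeR's quasi-likelihood test, Benjamini-Hochberg (BH) adjusted over 175 genes. In A375-BIR the log2 fold change was -0.28 (SE 0.17, interval -0.65 to 0.08; 0.822-fold; adjusted p = 0.254). Neither passed the threshold, and both intervals included 0. Over both lines together it was -0.19 (SE 0.12, interval -0.45 to 0.07; adjusted p = 0.243). At the threshold of 0.05, 25.1% of the tested genes differed between treatments in A375, 20.6% in A375-BIR and 35.4% over both lines. The response of MIR21 to dabrafenib in A375 minus that in A375-BIR was 0.18 (SE 0.24, interval -0.34 to 0.69; adjusted p = 0.772), in a comparison that called 3.43% of the genes. The intervals reach changes of 0.721-fold in A375 and 0.638-fold in A375-BIR, so a moderate fall and no fall cannot be told apart with these libraries. The direction in A375 rested on replicate 1 in DMSO: without it, the log2 fold change was 0.05 (adjusted p = 0.863, within a range of 0.0173 to 0.986 over all alternatives).

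A375 against A375-BIR addresses acquired resistance. In DMSO, MIR21 differed by a log2 fold change of 0.07 (SE 0.17, interval -0.30 to 0.43; adjusted p = 0.796), where 46.3% of the tested genes passed. In dabrafenib it differed by 0.24 (SE 0.17, interval -0.13 to 0.61; adjusted p = 0.281), where 46.3% passed too. Over both treatments the difference was 0.15 (SE 0.12, interval -0.11 to 0.41; adjusted p = 0.282), in a comparison that called 60% of the genes. MIR21 therefore did not pass the threshold in comparisons that called 46.3% to 60% of the tested genes. Its interval over both treatments runs from 0.930-fold to 1.33-fold in A375 over A375-BIR. The sign in DMSO turned without A375-BIR replicate 3 in DMSO (-0.05) and without A375 replicate 1 in DMSO (-0.09). Across all 7 comparisons, edgeR's quasi-likelihood test called MIR21 in 0, with 0 at an unadjusted p under 0.05, and DESeq2's Wald test called it in 0, with 1 at an unadjusted p under 0.05.

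Exact two-sided permutation tests, which use MIR21 alone, gave a like picture on log2 CPM. The difference in means was -0.10 for dabrafenib in A375 (exact p = 0.6) and -0.27 in A375-BIR (exact p = 0.3), where 3 against 3 libraries cannot go below 0.1. Between the lines it was 0.06 in DMSO (exact p = 0.8) and 0.23 in dabrafenib (exact p = 0.3). With labels exchanged within each line or treatment, which gives 400 arrangements and a smallest p of 0.005, the exact p was 0.12 for dabrafenib and 0.25 for the lines. Adjusted over these 6 tests, the smallest permutation p was 0.45. On the log2 share of the library total the picture was another one. In dabrafenib the share differed by -0.60 in A375 and -0.30 in A375-BIR, each at the smallest exact permutation p of 0.1 and with 3 of 3 dabrafenib libraries below the DMSO libraries. Over both lines the difference was -0.45 with an exact permutation p of 0.005, the smallest the arrangements can give, and 0.03 after adjustment. Lower shares in every dabrafenib library of both lines suffice for this smallest value, and 14.3% of the tested genes had them (25, MIR21 among them). With the rRNA-like rows left out of the total, the treatments overlapped in both lines.

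The size of the MIR21 log2 fold change in dabrafenib therefore depended on the scaling, while its sign was negative under all 7. Under 7 scalings (TMM, DESeq2's size factors, upper quartile, total counts, total counts without the rRNA-like rows, total counts without the 10 most abundant genes and MIR21, and 8 commonly used reference miRNAs, of which 5 had counts in every library) the log2 fold change was between -0.59 and -0.11 in A375 and between -0.38 and -0.10 in A375-BIR. In A375 it passed the threshold in edgeR's quasi-likelihood test under total counts (-0.59, adjusted p = 0.0173) and not under the other 6, where the adjusted p was up to 0.659. In A375-BIR it passed under 0 of the 7 (adjusted p between 0.204 and 0.847). Over both lines it was between -0.45 and -0.19, and it passed under total counts (-0.45, adjusted p = 0.0112), upper quartile (-0.43, adjusted p = 0.0328) and totals without the 10 most abundant genes (-0.41, adjusted p = 0.0217), with 0.369 as the highest adjusted p of the 7. The value also moved with the filter on low counts, which changes the genes tested and the TMM factors together. With 1 CPM in 3 libraries (538 genes) and with no filter (839 genes), the log2 fold change was -0.51 and -0.50 in A375, and -0.52 and -0.52 in A375-BIR, none past the threshold, and over both lines it passed (-0.52 and -0.51).

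Between the lines the sign itself moved. In DMSO MIR21 was higher in A375 under all 7 scalings, by 0.07 to 0.91, and passed the threshold with the reference miRNAs only (0.91, adjusted p = 0.00697, against up to 0.796 under the others). In dabrafenib the difference ran from -0.22 under total counts and -0.10 without the rRNA-like rows to 0.71 with the reference miRNAs, the only scaling under which it passed (adjusted p = 0.0318, against up to 0.652). Over both treatments it ran from -0.07 under total counts to 0.81 with the reference miRNAs (adjusted p = 0.00108, against up to 0.947). Of the 5 reference miRNAs tested, 3 (MIR16-1, MIR16-2 and MIR93) were lower in A375 in DMSO and 1 (MIR93) in dabrafenib, in the TMM fit, where 30.3% and 22.3% of all tested genes were lower. MIR25 was the 1 reference miRNA higher in A375 in dabrafenib than in DMSO (18.3% of all tested genes were), and 0 of 5 differed between treatments in A375-BIR. The difference between the lines in the response was between -0.29 and 0.18 and passed under 0 of the 7 (adjusted p between 0.679 and 0.902).

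A scaling moves all genes together, and so it leaves the place of MIR21 among them nearly unchanged. Over the 7 scalings, the median of all 175 log2 fold changes ran from -0.36 to 0.14 for dabrafenib in A375, from -0.13 to 0.12 for dabrafenib in A375-BIR, from -0.16 to 0.69 between the lines in DMSO and from -0.50 to 0.40 between the lines in dabrafenib. Relative to that median, MIR21 lay between -0.25 and -0.18 for dabrafenib in A375 and between -0.25 and -0.22 in A375-BIR. Between the lines it lay between 0.22 and 0.23 above the median in DMSO and between 0.27 and 0.32 above it in dabrafenib. Such stability follows from what a scaling does and adds no evidence. The place did move with the genes kept or the library left out. With the filter of 1 CPM in 3 libraries, MIR21 lay at -0.39 and -0.52 from the median for dabrafenib in A375 and A375-BIR and at -0.09 between the lines in DMSO. Without A375-BIR in DMSO replicate 3 the last value was 0, and without A375 in dabrafenib replicate 2 the value for dabrafenib in A375 was -0.08. The latter was -0.43 without A375 in dabrafenib replicate 1. For dabrafenib in A375-BIR the value was -0.44 without A375-BIR in DMSO replicate 3. Between the lines in dabrafenib the value was 0.09 without A375 in dabrafenib replicate 1, 0.57 without replicate 2 and 0.02 with no filter.

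By rank, 112 of the 174 other tested genes had a higher log2 fold change than MIR21 for dabrafenib in A375, and 123 had one in A375-BIR. Over the 10 alternatives that kept these 175 genes and all libraries of the comparison, these numbers were 105 to 112 and 119 to 126. Between the lines, 71 of the other genes lay higher in DMSO and 68 in dabrafenib. Among the 20 most abundant tested genes, 12 of the other 19 lay above MIR21 for dabrafenib in A375, 14 in A375-BIR, 9 between the lines in DMSO and 9 in dabrafenib. MIR21 stood near the middle of both lists between the lines and somewhat below the middle for dabrafenib.

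**Figure D2:**
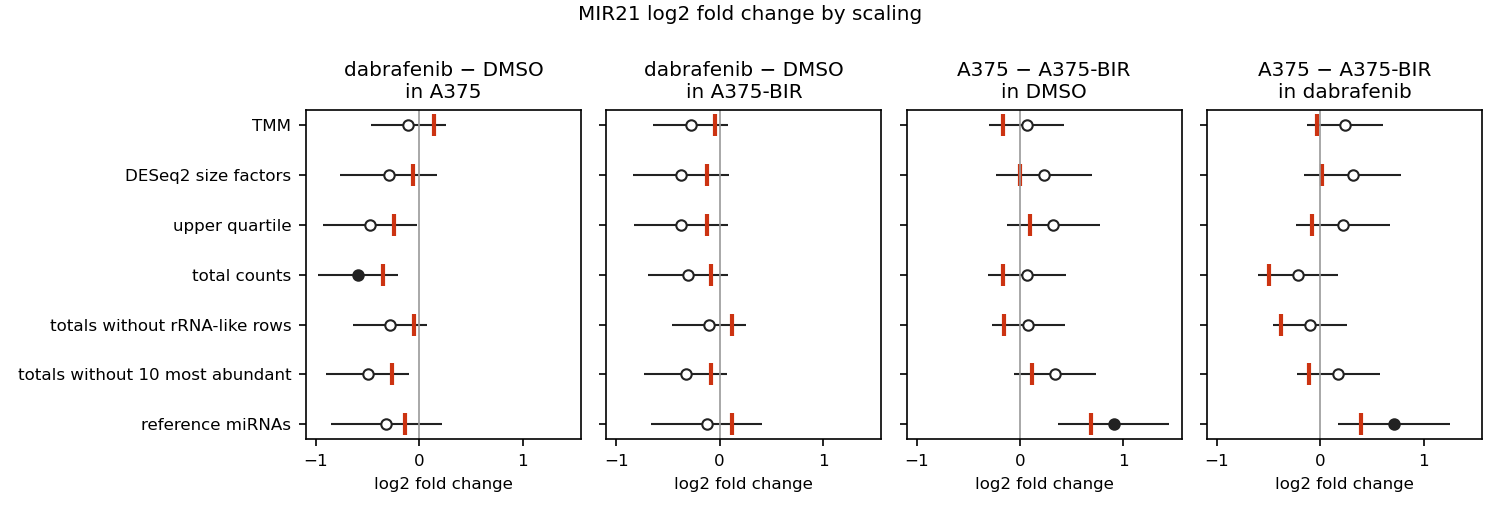
MIR21 log2 fold change (horizontal axis) under 7 scalings (rows) in 4 comparisons (panels). Circles with bars are the estimate and its 95% interval, filled where the adjusted p was under 0.05, and red ticks mark the median of the 175 tested genes; the estimate and the median shift together from row to row, and filled circles appear under total counts for dabrafenib in A375 and with the reference miRNAs between the lines.

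MIR21 was set beside other miRNAs known as driven by ERK, AP-1 or CREB signalling. The list holds MIR21, the oncogenic pair MIR221 and MIR222, the inflammation-linked MIR155, MIR31, which lies near CDKN2A, and the CREB-driven MIR132 and MIR212. Of these 7, MIR132 (63 counts in all) and MIR212 (3 counts) were too low to be tested. The mature strands of the other tested members are shown with their seeds in capitals, since miR-221-3p and miR-222-3p share a seed with each other and none shares that of miR-21-5p.
miR-221-3p: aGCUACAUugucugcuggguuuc
miR-222-3p: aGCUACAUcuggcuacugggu
miR-155-5p: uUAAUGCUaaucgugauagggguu
miR-31-5p: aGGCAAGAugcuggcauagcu
The AP-1 letters searched above occur upstream of 4 of the 7 members (MIR21, MIR155, MIR132 and MIR212), close to the 54.9% of all windows.

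In dabrafenib, 2 of the 5 tested members fell in A375 and 0 rose, where 6.86% of all tested genes were lower and 18.3% higher. In A375-BIR 3 fell and 1 rose, where 7.43% were lower and 13.1% higher. The median log2 fold change of the 5 was -0.61 in A375 and -0.47 in A375-BIR, beside 0.14 and -0.04 over all tested genes. MIR21 was the 1 member that passed in neither line.

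MIR221 stood at 21850, 22418 and 19442 CPM in A375 in DMSO and at 16552, 13956 and 11214 CPM in dabrafenib. In A375-BIR it stood at 54543, 49663 and 36316 CPM in DMSO and at 20861, 26858 and 30980 CPM in dabrafenib. Every dabrafenib library lay below every DMSO library of its line. Such non-overlap on CPM was not counted over all tested genes. On library shares, 38.9% of tested genes were lower in every dabrafenib library in A375 and 19.4% in A375-BIR. The log2 fold changes were -0.61 in A375 (SE 0.19, edgeR adjusted p = 0.0283) and -0.84 in A375-BIR (SE 0.19, edgeR adjusted p = 0.00660). Over 12 alternatives they ran from -1.11 to -0.61 in A375 and from -1.06 to -0.65 in A375-BIR. The call in A375 was lost without A375 in DMSO replicate 1 (-0.59) or 2 (-0.57), A375 in dabrafenib replicate 2 (-0.61) or 3 (-0.48), or A375-BIR in dabrafenib replicate 2 (-0.66). That in A375-BIR was lost without its DMSO replicate 1 (-0.63) or its dabrafenib replicate 2 (-0.78), and in a fit of only the libraries compared (-0.75).

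MIR222, which is transcribed with MIR221, stood at 4562, 4358 and 4555 CPM in A375 in DMSO and at 2792, 2769 and 2932 CPM in dabrafenib. In A375-BIR it stood at 16093, 16443 and 15822 CPM in DMSO and at 13109, 12376 and 9504 CPM in dabrafenib. Again the treatments did not overlap in either line, with no count over all tested genes on CPM. The log2 fold changes were -0.67 (SE 0.15, edgeR adjusted p = 0.00379) and -0.47 (SE 0.14, edgeR adjusted p = 0.0315). Over 12 alternatives they ran from -1.16 to -0.67 in A375 and from -0.72 to -0.30 in A375-BIR. In A375-BIR the call was lost in 4 of 12 alternatives. These were totals without the rRNA-like rows (-0.30), the reference miRNAs (-0.30), a fit of only the libraries compared (-0.40) and a replicate block (-0.47). The call was also lost without DMSO replicate 1 (-0.40) or 2 (-0.45) or dabrafenib replicate 2 (-0.49) or 3 (-0.34) of that line.

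MIR31 fell in A375-BIR from 10157, 10324 and 9945 CPM in DMSO to 3575, 4727 and 3689 CPM in dabrafenib, a log2 fold change of -1.34 (SE 0.16, edgeR adjusted p = 3.38e-05). In A375 it had counts of 26, 48 and 36 in DMSO and of 10, 7 and 5 in dabrafenib (log2 fold change -0.74, SE 0.25, edgeR adjusted p = 0.0736). This value passed the threshold under each of the other 6 scalings, with log2 fold changes of -1.24 to -0.92, with both looser filters (-1.15 and -1.13), in a fit of only the libraries compared (-0.94) and without A375-BIR in dabrafenib replicate 2 (-0.80).

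MIR155 went the other way. It had a log2 fold change of 1.54 in A375-BIR (SE 0.49, edgeR adjusted p = 0.0394), from 44.9, 124 and 82.3 CPM in DMSO to 27.1, 343 and 321 CPM in dabrafenib, with 2 of 3 dabrafenib libraries above the DMSO libraries. That call rested on counts of 1 to 23 and was lost in a fit of only the libraries compared (1.61) and in 8 of 12 fits without 1 library. These were A375-BIR in DMSO replicates 1 (1.35) and 3 (1.50), A375-BIR in dabrafenib replicates 2 (1.24) and 3 (1.33), A375 in DMSO replicates 1 (1.53) and 2 (1.53), and A375 in dabrafenib replicates 2 (1.54) and 3 (1.54). In A375 its log2 fold change was -0.05 (SE 0.33), and 0.03 without A375 in dabrafenib replicate 3. The difference in response between the lines passed the threshold for 0 of the 5 members in edgeR's quasi-likelihood test (6 of all 175 genes), with 1 (MIR155) at an unadjusted p under 0.05 (34 of 175), and for 1 in DESeq2's Wald test (6 of 175).

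Between the lines, 3 of the 5 members (MIR221, MIR222 and MIR31) were lower in A375 and 1 (MIR155) higher, both in DMSO and in dabrafenib. Of all tested genes, 30.3% were lower and 16% higher in DMSO, and 22.3% were lower and 24% higher in dabrafenib. MIR221 differed by -1.14 in DMSO and -0.92 in dabrafenib, and both calls were lost with the reference miRNAs (-0.29 and -0.44). MIR222 differed by -1.84 and -2.04, MIR31 by -4.85 and -4.25, and MIR155 by 4.34 and 2.75. MIR155 held 1 to 23 counts in A375-BIR and passed the filter through A375, so its being higher there was favoured by the selection. Beside these values, those of MIR21 in the same fits were 0.07 and 0.24. The summed share of the 7 members, led by MIR221, was 8.85% to 10.2% in A375-BIR in DMSO, 5.31% to 6.37% in A375-BIR in dabrafenib, 4.49% to 5.16% in A375 in DMSO and 2.18% to 3.09% in A375 in dabrafenib.

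The balance of higher and lower calls behind these percentages moved with the scaling. For dabrafenib in A375, 32 genes were higher and 12 lower with TMM, and these numbers were 23 and 23 with DESeq2's size factors, 20 and 33 with the upper quartile, 18 and 44 with total counts, 25 and 18 without the rRNA-like rows, 20 and 35 without the 10 most abundant genes, and 18 and 17 with the reference miRNAs. For dabrafenib in A375-BIR, 23 and 13 became 23 and 20 with DESeq2's size factors, 25 and 6 without the rRNA-like rows and 24 and 5 with the reference miRNAs. Between the lines in DMSO, 28 and 53 became 38 and 43 with DESeq2's size factors, 53 and 41 with the upper quartile, 54 and 39 without the 10 most abundant genes and 76 and 17 with the reference miRNAs. In dabrafenib, 42 and 39 became 24 and 58 with total counts, 28 and 49 without the rRNA-like rows and 51 and 21 with the reference miRNAs. MIR21 was among the lower calls for dabrafenib in A375 only with total counts.

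**Figure D3:**
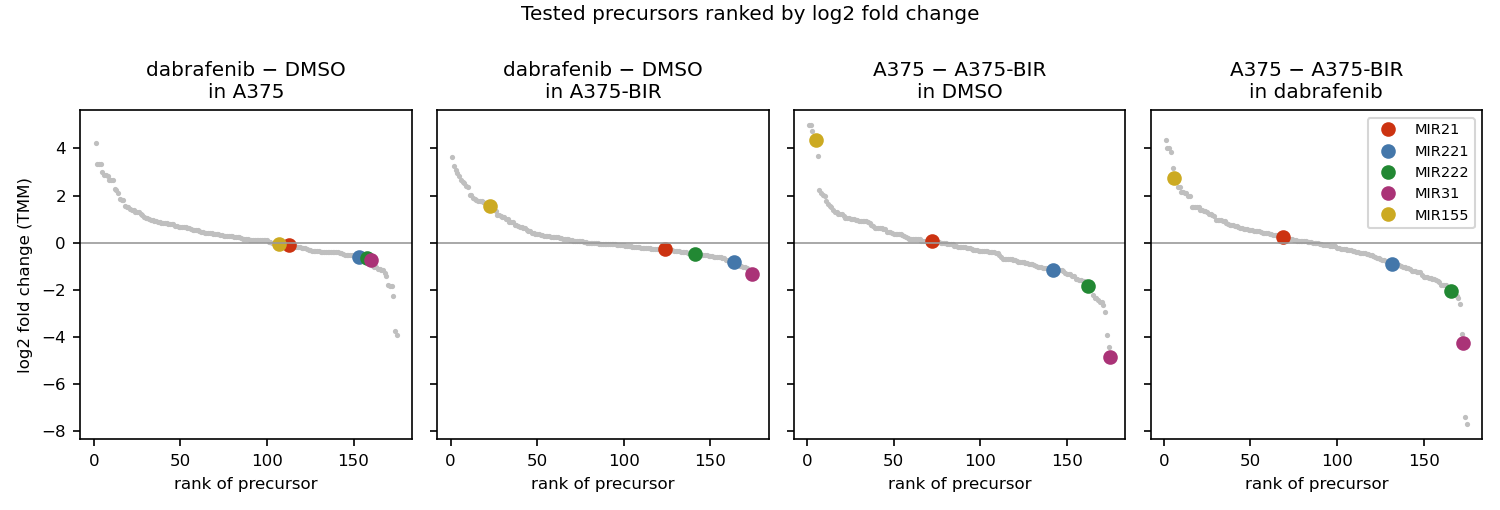
The 175 tested genes ranked by log2 fold change in 4 comparisons, with the rank on the horizontal axis and the log2 fold change after TMM scaling on the vertical axis. Grey points are all tested genes and coloured points the 5 tested members of the list of ERK, AP-1 or CREB targets; MIR21 lies between -0.28 and 0.24 in all 4 panels, while MIR31 lies at -4.85 between the lines in DMSO.

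Ratios of counts within a library need no scaling. The ratio of MIR21 to MIR221 was 0.862, 0.610 and 0.740 in A375 in DMSO and 1.01, 0.894 and 1.28 in dabrafenib. In A375-BIR it was 0.303, 0.324 and 0.336 in DMSO and 0.612, 0.465 and 0.374 in dabrafenib. In each line every dabrafenib library had a higher ratio than every DMSO library of the line, so MIR221 was lower relative to MIR21. How many other genes have ratios to MIR21 that do not overlap was not counted. On library shares, 55.4% of tested genes did not overlap between treatments in A375 and 36% in A375-BIR. The ratio of MIR21 to MIR31 was 61.0, 37.8 and 38.3 in A375 in DMSO and 64.8, 63.7 and 87.0 in dabrafenib, and 1.63, 1.56 and 1.23 against 3.57, 2.64 and 3.14 in A375-BIR. Here too the dabrafenib libraries lay above the DMSO libraries in both lines. In A375 the margin was narrow and rested on MIR31 counts of 5 to 10 in dabrafenib. The ratio to MIR222 rose without overlap in A375, from 4.13, 3.14 and 3.16 to 6, 4.51 and 4.89, and overlapped in A375-BIR (1.03, 0.980 and 0.771 in DMSO; 0.973, 1.01 and 1.22 in dabrafenib). The ratio to MIR155 overlapped between treatments in both lines, and in A375-BIR it was lower than in every DMSO library in 2 of 3 dabrafenib libraries (471, 36.4 and 36.1 against 368, 130 and 148). Over all 12 libraries the highest ratio was 4.22-fold the lowest for MIR221, 7.79-fold for MIR222, 71.0-fold for MIR31 and 73.9-fold for MIR155.

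The pattern most like that of MIR21 over the 12 libraries, by Pearson's r of log2 CPM (TMM), was that of MIR181A1 (r = 0.79, Spearman's rho = 0.79) and MIR181A2 (r = 0.78, rho = 0.73), which are copies of miR-181a and share its reads. MIR28 (r = 0.64, rho = 0.57), MIRLET7G (r = 0.60, rho = 0.57) and MIR532 (r = 0.59, rho = 0.46) came next among 174 genes, whose median r was -0.10. Without the 2 libraries farthest from the median of MIR21, r over the other 10 was 0.72 for MIR181A1, 0.69 for MIR181A2, 0.61 for MIR28, 0.52 for MIRLET7G and 0.65 for MIR532. With group means removed it was 0.68, 0.68, 0.42, 0.39 and 0.40. All values of a library share its scaling factor, which may add to r, and this was not tested. The ratio of MIR21 to MIR181A1 lay between 0.578 and 0.772 in all 12 libraries, a 1.34-fold range. The other ERK, AP-1 or CREB targets tested had r = 0.09 (MIR221), -0.20 (MIR222), -0.22 (MIR31) and 0.20 (MIR155). This depended on the measure: with group means removed r was 0.41, 0.28, 0.10 and -0.19, and on the log2 share it was 0.63, 0.46, 0.34 and -0.14, beside 0.19 for MIR532 and 0.91 for MIR181A1.

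**Figure D4:**
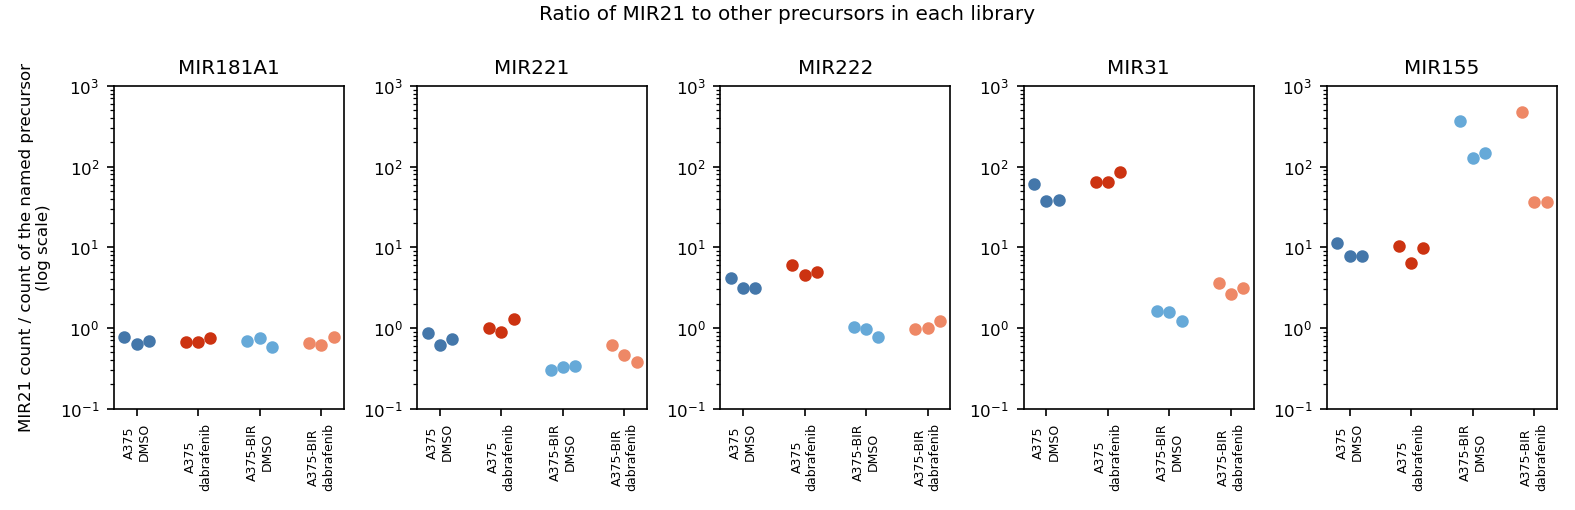
Count of MIR21 divided by the count of a named gene in each of the 12 libraries, on a log scale, by group. Points are libraries; the ratio to MIR181A1, chosen for its likeness, stays between 0.578 and 0.772, the ratios to MIR222, MIR31 and MIR155 separate the lines, and those to MIR221 touch at 0.610 and 0.612.

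Further lists set MIR21 beside miRNAs of other roles. Of 3 miRNAs known as repressed downstream of RAS and ERK or by c-Jun, MIR143 was tested, while MIR145 (18.5 counts in all) was too low and MIR203A had no count. MIR143 rose in A375-BIR by a log2 fold change of 1.80 (SE 0.41, edgeR adjusted p = 0.00660), where 13.1% of all tested genes were higher. This rested on counts of 22 to 31 in DMSO and 20 to 52 in dabrafenib. In A375 its log2 fold change was 0.83 (SE 0.43, adjusted p = 0.190), and 1.54 without A375 in DMSO replicate 3 (adjusted p = 0.00723, within a range of 0.00723 to 0.649 over the alternatives). MIR181B1, like MIR21 a known STAT3 target, had log2 fold changes of 0.78 for dabrafenib in A375 and 0.76 between the lines in dabrafenib. Both passed with TMM, where 25.1% and 46.3% of all tested genes did. It did not pass for dabrafenib in A375-BIR (0.21, and -0.0164 and -0.0288 with the looser filters) or between the lines in DMSO (0.20), although the latter passed with the upper quartile (0.46), without the 10 most abundant genes (0.48) and with the reference miRNAs (1.05). The first call was lost in 6 of 12 alternatives: total counts (0.28), upper quartile (0.39), totals without the 10 most abundant genes (0.37), reference miRNAs (0.52) and both looser filters (0.36 and 0.38). The second was lost in 3 of 12: total counts (0.29) and both filters (0.53 and 0.53).

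Among 10 oncogenic miRNAs other than MIR21 (the miR-17-92 cluster, MIR155, MIR221, MIR222 and MIR10B), 8 were tested. In dabrafenib, 1 was higher and 2 lower in A375, and 2 were higher and 2 lower in A375-BIR, beside 18.3% higher and 6.86% lower, and 13.1% and 7.43%, of all tested genes. MIR10B, a metastasis-linked miRNA, was the 1 not yet described: its log2 fold change was 1.50 in A375 and 0.89 in A375-BIR, and the latter call was lost with no filter on low counts (0.65). Between the lines, 1 was higher and 2 lower in A375 in DMSO, and 2 were higher and 2 lower in dabrafenib, where all tested genes stood at 16% and 30.3%, and at 24% and 22.3%.

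The genes around MIR21 had few counts. Of 13 other listed genes within 5 Mb, 8 had any count and 0 were tested, and together they took 0.00968% to 0.0341% of a library. MIR4737, the most abundant of them, held 47.2 counts in all. Of 9 miRNAs of the melanocyte lineage, 6 had counts, led by MIR204, and their summed share in A375 was 0.318% to 0.336% with DMSO and 0.544% to 0.741% with dabrafenib. In A375-BIR it was 0.0199% to 0.0228% with DMSO and 0.0351% to 0.0735% with dabrafenib. MIR204 was higher in A375 in both treatments, as were 16% of all tested genes in DMSO and 24% in dabrafenib. MIR509-1, MIR509-2 and MIR509-3 were too, but they held at most 3 counts in any A375-BIR library and passed the filter through A375 alone. The lineage marker MIR211 held 44 counts in all and MIR514A1, MIR514A2 and MIR514A3 had none. MIR21 did not follow this difference between the lines. Markers of blood cells, epithelium, muscle and liver or serum (16 genes, led by MIR205 with 62 counts) summed to at most 0.0462% of a library. MIR451A, MIR429 and MIR122 had no count, and 3 counts stand for 24.4 to 85.5 CPM, by the depth of the library. The reference miRNAs MIR423 and MIR103A1 had no count either, so a count of 0 in these files need not mean that a miRNA was absent.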

How the data were processed

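Small RNA was sequenced from A375 and A375-BIR cells in DMSO or dabrafenib, with 3 libraries per group as labelled and 12 in all. The authors trimmed the reads and removed rRNA and phiX reads, and they deposited expected counts from RSEM 1.2.25 per miRNA gene (hg38), without normalization. Of 1881 rows, 1877 matched GENCODE annotation.

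Here expected counts were rounded to whole numbers, filtered with filterByExpr (175 genes), scaled by TMM and fitted with 1 mean per group over all 12 libraries (R 4.3.3, edgeR 4.0.16, quasi-likelihood test, Benjamini-Hochberg adjustment, threshold 0.05). The design assumed counts, so the rounding was compared with unrounded values. The common biological coefficient of variation was 21.6%. DESeq2 1.42.0, other scalings and filters, a replicate block, single-comparison fits and each library left out were alternatives. The prior count of log2 CPM was 2. Permutation tests used scipy 1.17.1, tables pandas 2.3.3 in Python 3.11.15 and figures matplotlib 3.10.9. Mature sequences are from RefSeq (hg38). The fit was tested on simulated data.

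MIR21 and the lists were chosen with earlier results of these data known. Named genes were MIR21, all list members, the 5 genes most correlated with MIR21, the 5 most abundant and the neighbours of MIR21 by abundance; calls within a list were named after their values were seen.

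No library was a copy of another: the 12 within-group pairs had a chi-square of 2.86 to 42.0 per degree of freedom. Same-numbered DMSO libraries of A375 and A375-BIR deviated weakly together (r of 0.11 to 0.30 over tested genes). This is a hint of pairing from the data only, since the labels name no shared batch. Other pairs of groups did not show it throughout, and between A375-BIR in DMSO and in dabrafenib r ran from -0.54 to 0.01. The main fit has no block.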

Additional observations from a re-analysis of the deposited data

Results flagged for a closer look

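MIRLET7B had the largest mean share over the 12 libraries and differed between the lines in its response to dabrafenib. Its mean went from 177220 to 342587 CPM in A375 and from 114323 to 118856 CPM in A375-BIR. In A375 in DMSO the mean of MIRLET7I (178438 CPM) was slightly higher. The difference in the log2 fold change of MIRLET7B was 0.89 (SE 0.21, adjusted p = 0.0282 in edgeR's quasi-likelihood test). All 3 A375 libraries in dabrafenib lay above those in DMSO, and such non-overlap on CPM was not counted over all tested genes. The difference kept its sign and lost the call in 9 of 11 alternatives, all 6 other scalings among them (0.41 to 0.77), with adjusted p-values of up to 0.517, and in 9 of 12 fits without 1 library (0.71 to 1.02). MIR21, which was chosen for the report, had a difference of 0.18 in the same fit.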

How the results depend on the processing

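Leaving out 1 library at a time, the MIR21 log2 fold change ranged from -0.22 to 0.050 for dabrafenib in A375, -0.44 to -0.13 for dabrafenib in A375-BIR, -0.29 to -0.12 for dabrafenib over both lines, -0.0904 to 0.15 between the lines in DMSO, 0.06 to 0.34 in dabrafenib, 0.06 to 0.20 over both treatments and -0.00535 to 0.33 for the difference in response, with 0 calls. Total counts gave -0.59 for dabrafenib in A375 and -0.45 over both lines, now past the threshold, and turned the sign between the lines in dabrafenib (-0.22), over both treatments (-0.0738) and in the difference in response (-0.29). Totals without the rRNA-like rows turned the same signs (-0.0997, -0.00911 and -0.18). The upper quartile (-0.11), totals without the 10 most abundant genes (-0.17) and the reference miRNAs (-0.19) also turned the difference in response. Dabrafenib over both lines passed with the upper quartile (-0.43), without the 10 most abundant genes (-0.41), with a filter of 1 CPM in 3 libraries (-0.52) and with no filter (-0.51); TMM factors were recomputed on the genes kept, 538 and 839 in the last 2. The reference miRNAs took the line differences past the threshold (0.91 in DMSO, 0.71 in dabrafenib, 0.81 over both). On the log2 share, the permutation p for dabrafenib over both lines was 0.005, and the sign turned between the lines in dabrafenib (p = 0.3) and over both treatments (p = 0.555). The share of 14.3% of all tested genes was lower in every dabrafenib library of both lines. Without the rRNA-like rows the MIR21 share rose to 1.46% in A375 and 1.57% in A375-BIR in dabrafenib. The number of genes called for dabrafenib in A375-BIR was 36, 19 in a fit of only the libraries compared and 20 to 46 without 1 library; that for the difference in response was 6, 1 with total counts, 1 without the 10 most abundant genes and 2 to 6 without 1 library. MIR155 in A375 in dabrafenib turned to 0.0282 without replicate 3 of that group (range -0.17 to 0.0282). MIR181B1 for dabrafenib in A375-BIR turned to -0.0164 with the filter of 1 CPM and -0.0288 with no filter. The causes were not tested. With a replicate block the MIR21 values were -0.10, -0.27, -0.19, 0.06, 0.23, 0.15 and 0.17 in the order above. The block changed no call of MIR21. For dabrafenib in A375-BIR, MIR222 was at -0.47 with the block and lost its call (edgeR adjusted p = 0.0600). The counts of calls became 34 and 26 for dabrafenib in A375 and A375-BIR and 78 and 78 between the lines in DMSO and dabrafenib. Same-numbered libraries correlated best with each other in 6 of 6 cases between the DMSO groups, a hint from the data only, and in 0 to 3 of 6 between other groups. All other alternatives kept the direction of MIR21 and its side of the threshold. Among them, a fit of only the libraries compared gave -0.28 for dabrafenib in A375 and 0.06 between the lines in dabrafenib. Depth limits the calls of genes with few counts.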
